A study of Mus musculus with 6 samples.

Results

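The genes described here are the 10 genes that flank Acta2 on mouse chromosome 19: Stambpl1, Fas, Ch25h and Lipa, followed by the cluster of interferon-induced genes with tetratricopeptide repeats, Ifit2, Ifit3, Ifit1bl1, Ifit3b, Ifit1bl2 and Ifit1. They were taken by symbol from a deposited table of 25746 genes, where all 10 lie within 458 kb of chromosome 19, and Acta2 itself was left out. The set was chosen by position and with the RNA levels of Acta2 KO against WT libraries already known, so the RNA values of these 10 genes are given as a description. Calls from the fit over all genes are listed for these 10 genes as part of that description and support nothing.

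The study asked what the loss of Acta2, which encodes smooth muscle alpha-actin, does to cardiac fibroblasts. RNA sequencing was done on 2 Acta2 KO and 2 WT libraries, and open chromatin was profiled by ATAC-seq, in which a transposase cuts accessible DNA, on 1 Acta2 KO and 1 WT library. According to the extraction protocol, the KO cells were fibroblasts of Acta2 fl/fl mice and the WT cells were fibroblasts of WT mice. Both genotypes received an adenovirus that carries Cre recombinase and then TGFβ for 2 days, so the WT cells had the virus and the cytokine too. The labels also describe a tamoxifen-induced MerCreMer (5 daily doses of 75 mg/kg, begun at an age of 6 weeks), coronary ligation at 9 weeks of age and a sort of Tcf21 lineage-traced eGFP+ cells, and they do not say which of these routes each library followed. Nothing states whether replicates came from separate mice or cultures, so p-values measure only the spread between these libraries, which may be technical.

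Depth was 11370115 and 10864365 estimated counts in KO libraries, against 8429166 and 9096811 in WT libraries. Acta2 had 256 and 265 CPM (counts scaled to library size, with TMM factors) in KO libraries, against 2186 and 2200 CPM in WT libraries, so that KO libraries kept 11.9% of the WT level. Fibroblast markers were abundant, with summed levels of 3523 and 3528 CPM in KO, against 4913 and 4828 CPM in WT. Of the 10, 8 were called lower and 1 higher (edgeR quasi-likelihood test over all genes, adjusted p under 0.05). Counts of markers that rose or fell below follow the same rule, beside 17.4% of all tested genes lower and 18.3% higher. Markers of macrophages and leukocytes summed to 179 and 180 CPM in KO, against 103 and 98.8 CPM in WT, and 6 of the 8 tested rose, although Fcgr1 was at 0 in every library and Ptprc, the pan-leukocyte antigen, had at most 11 counts. Endothelial markers summed to 153 and 167 CPM in KO, against 122 and 115 CPM in WT, with 8 of 11 tested higher and 1 lower. Pericyte and smooth muscle markers summed to 88.8 and 95.7 CPM in KO, against 60.6 and 62.3 CPM in WT, with 3 of 7 tested higher and 3 lower. Epicardial and mesothelial markers summed to 313 and 302 CPM in KO, against 314 and 301 CPM in WT, with 1 of 8 tested higher and 4 lower. Lymphocyte markers stayed at or below 1.28 CPM in sum, and 6 of those 10 genes were at 0 in all libraries. These cell types can also express members of the set, and their part in the values below was not tested. In bulk RNA, fewer cells of a type and less RNA per cell cannot be told apart.

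Ifit proteins are made when cells sense viral RNA or receive interferon. Interferon receptors signal through JAK kinases, and the genes they induce commonly carry the interferon-stimulated response element, a short DNA motif, in their promoters. IFIT1 is known to bind viral RNA that lacks the cap methylation of host mRNA and to block its translation, and the human IFIT2 and IFIT3 proteins form complexes with it. The other 4 genes have different roles. Stambpl1 encodes a deubiquitinase that cuts lysine-63-linked ubiquitin chains, Fas a death receptor, Ch25h the enzyme that makes 25-hydroxycholesterol, an interferon-inducible antiviral oxysterol, and Lipa the lysosomal acid lipase that frees cholesterol from its esters.

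The response element can be read in the letters of the Ifit promoters, which are shown because copies of one motif stand in the promoters of 5 of the 6 Ifit genes and in none of the other 4 genes. RefSeq promoter sequences (assembly GRCm38.p6) cover 250 bases before to 50 bases after each start and were given for 1 or more starts of each of the 10 genes. The core searched was GAAA, any 2 bases and GAAA, which reads TTTC, any 2 bases and TTTC on the other strand, and it is in capitals. Positions are counted from the RefSeq start, negative upstream. The Ifit3 sequence is chr19:34583279-34583578, the Ifit3b sequence chr19:34607707-34608006 and the Ifit1 sequence chr19:34640639-34640938, all on the plus strand.
Ifit3 promoter: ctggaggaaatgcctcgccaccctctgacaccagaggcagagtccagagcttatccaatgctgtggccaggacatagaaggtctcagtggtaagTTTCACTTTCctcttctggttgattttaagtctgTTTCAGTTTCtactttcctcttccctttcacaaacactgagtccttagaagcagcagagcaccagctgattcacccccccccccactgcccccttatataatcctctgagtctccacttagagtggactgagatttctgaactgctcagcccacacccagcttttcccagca
Ifit3b promoter: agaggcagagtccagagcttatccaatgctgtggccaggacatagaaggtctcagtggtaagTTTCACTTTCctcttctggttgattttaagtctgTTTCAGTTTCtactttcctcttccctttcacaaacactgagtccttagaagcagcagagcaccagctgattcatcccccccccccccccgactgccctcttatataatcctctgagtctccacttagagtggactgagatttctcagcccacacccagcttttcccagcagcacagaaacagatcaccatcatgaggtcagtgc
Ifit1 promoter: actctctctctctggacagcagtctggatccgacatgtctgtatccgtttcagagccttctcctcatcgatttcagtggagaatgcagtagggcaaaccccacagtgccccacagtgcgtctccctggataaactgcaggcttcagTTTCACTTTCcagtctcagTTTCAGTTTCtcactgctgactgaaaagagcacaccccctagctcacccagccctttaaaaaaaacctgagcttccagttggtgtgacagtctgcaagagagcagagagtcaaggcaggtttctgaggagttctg

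Ifit3 and Ifit3b each held 2 copies, at -156 and -122 in Ifit3 and at -188 and -154 in Ifit3b. The 2 promoters were identical at 258 of 274 aligned columns (94.2%), with 14 gap columns and 2 mismatches. Ifit1 had copies at -104 and -85. The start of Ifit1bl2, on the opposite strand, lies 128 bases away, and the 2 promoter windows share 245 bases, so the same 2 copies also stand in the Ifit1bl2 window, at -70 and -51. Ifit1bl1 had 1 copy at -104 and 1 copy at -23 of a second start. The core was present in 3.44% of the 32851 mouse promoter windows in the RefSeq table, and 0.225% held 2 or more.

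Ifit2 was the exception within the family. Neither of its annotated promoter windows held the core, nor did those of Stambpl1, Fas, Ch25h and Lipa. Over whole open chromatin loci, 15 of the 72 in the stretch held the core, 14 of them among the 50 found in both libraries. Loci differ in length, and no share over the loci of the genome is given, so these counts have no background. The broad peak at the start of Ifit2 held 2 overlapping matches, about 3 kb past the start, and 2 peaks within Ifit2 found in both libraries held 1 each, as did 1 found in WT alone. Outside the family, the peak at the start of Stambpl1 held 2, a peak within Fas 1 and the peak at the start of Acta2 2. The promoter sequence is chr19:34550444-34550743 and the stretch of the intronic peak is chr19:34569195-34569264, both on the plus strand, and they are printed as 1 window without the core and 1 peak with it near its summit in KO.
Ifit2 promoter: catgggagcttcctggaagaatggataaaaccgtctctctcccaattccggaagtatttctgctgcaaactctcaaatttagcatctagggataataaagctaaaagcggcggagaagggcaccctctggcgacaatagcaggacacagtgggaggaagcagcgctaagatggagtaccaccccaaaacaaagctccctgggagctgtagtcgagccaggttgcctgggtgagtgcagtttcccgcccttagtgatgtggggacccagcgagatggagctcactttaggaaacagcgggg
Ifit2 intronic peak: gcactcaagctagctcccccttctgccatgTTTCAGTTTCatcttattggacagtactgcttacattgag

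A further motif searched, the E-box CACGTG (which reads the same on both strands), occurred at -74 in Stambpl1 and at -110 in Fas, and in 7.15% of all windows. A match describes letters and is not evidence of binding.

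The RNA of 5 of the 6 Ifit genes was lower in both KO libraries than in both WT libraries (Ifit1bl2 overlapped), while the 4 genes nearer to Acta2 had log2 fold changes between -0.13 and 0.26. Over the 6 Ifit genes together, the summed level was 660 and 666 CPM in KO, against 1546 and 1546 CPM in WT, or 42.9% of WT. The median log2 fold change, KO over WT, was -1.22 over the 6 Ifit genes and 0.04 over the other 4 genes. In the fit over all genes, 7 of the 10 genes were called at an adjusted p under 0.05 (6 lower and 1 higher), against 35.7% of the 12192 tested genes (17.4% lower, 18.3% higher). All 10 passed the filter on low counts, Ifit1bl1 only through the WT libraries, where it was higher. In 8 of the 10 the groups did not overlap, against 67.1% of tested genes. Since the genes were chosen with this contrast known, nothing is read from these counts.

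**Figure D1:**
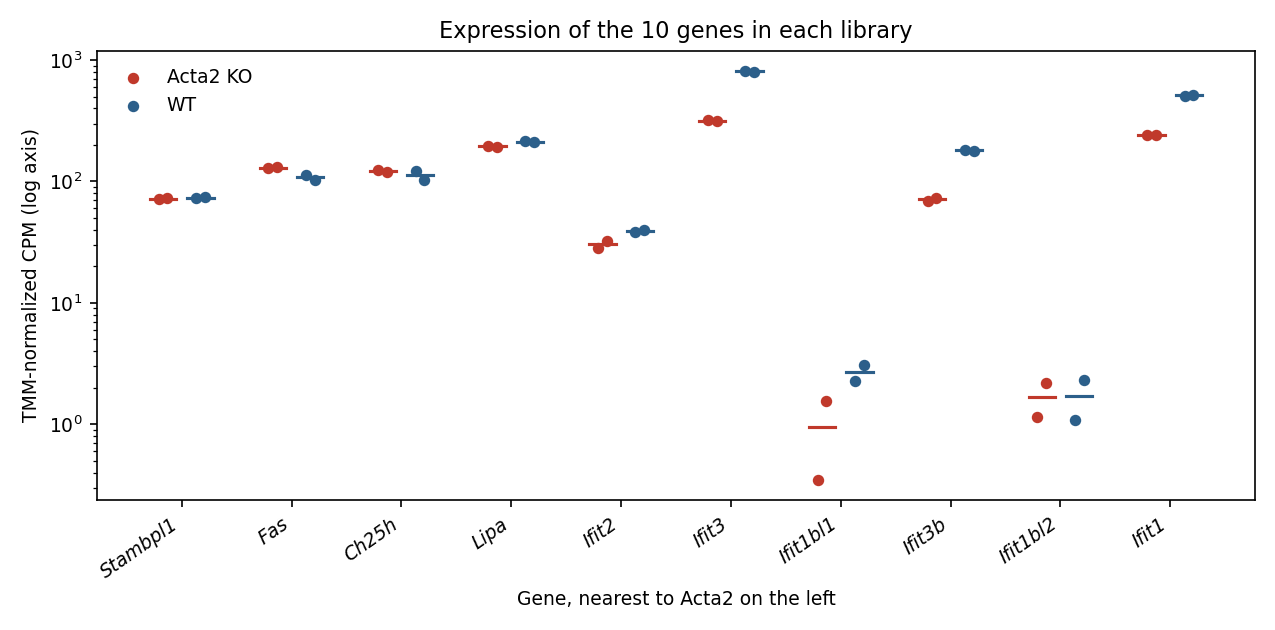
Normalized expression of the 10 genes in each RNA library, in CPM on a log axis, ordered from the gene nearest to Acta2 on the left to the farthest on the right. Points are libraries (red, 2 Acta2 KO; blue, 2 WT) and bars are group means; Ifit3, Ifit3b and Ifit1 show the widest gap relative to their spread, and Ifit1bl1 and Ifit1bl2 sit near 1 CPM.

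Ifit3 (ENSMUSG00000074896), chr19:34583531-34588731 on the plus strand with 2 exons, was the most abundant of the 10 genes. Its level was 319 and 315 CPM in KO libraries, against 811 and 805 CPM in WT libraries. The KO values lay far below both WT values, and replicates were close to each other. The log2 fold change was -1.35 ± 0.034 (SE, n = 2 per genotype), or 39.3% of the WT level.

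Ifit3b (ENSMUSG00000062488), chr19:34607970-34613401 on the plus strand with 2 exons, is a near copy of Ifit3. It had 68.4 and 73.7 CPM in KO libraries, against 183 and 178 CPM in WT libraries. Here too the groups stood well apart, with a log2 fold change of -1.34 ± 0.054 (SE, n = 2 per genotype). Of the 100-base windows of Ifit3 exons, 31.7% recur in another gene, and 27.4% of those of Ifit3b do, so the split of reads between the 2 genes is uncertain. Their sum avoids that question and was 388 and 389 CPM in KO, against 994 and 983 CPM in WT, with a log2 fold change of -1.35 ± 0.032 (SE). The ratio of Ifit3b to Ifit3 counts was 0.214 and 0.234 in KO, against 0.226 and 0.221 in WT, and these ranges overlap.

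Ifit1 (ENSMUSG00000034459), chr19:34640871-34650009 on the plus strand with 2 exons, is the farthest of the 10 from Acta2. It had 243 and 241 CPM in KO libraries, against 511 and 518 CPM in WT libraries. Again both KO values were below both WT values, at 47.1% of WT, and the log2 fold change was -1.09 ± 0.037 (SE, n = 2 per genotype). Ifit1 made up 36.8% and 36.2% of all Ifit counts in KO and 33.0% and 33.5% in WT, and Ifit3 made up 48.3% and 47.3% in KO, against 52.4% and 52.1% in WT.

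Ifit2 (ENSMUSG00000045932), chr19:34550694-34576419 on the plus strand with 4 merged exons, was less abundant and differed less. Its level was 28.4 and 32.2 CPM in KO libraries and 38.3 and 39.7 CPM in WT libraries. The groups did not overlap, and the log2 fold change was -0.37 ± 0.092 (SE, n = 2 per genotype), 77.6% of WT. DESeq2 and an assumed biological coefficient of variation (BCV) of 0.1 or 0.2 did not call this gene, and neither did the fit without KO replicate 1.

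The 2 remaining Ifit genes were close to the lower limit of the data. Ifit1bl1 (ENSMUSG00000079339), chr19:34592891-34601956 on the minus strand, had 4 and 17 estimated counts in KO libraries, against 19 and 28 in WT libraries. It passed the filter on low counts only through the WT libraries, its 2 KO values were far apart, and its log2 fold change of -1.51 ± 0.46 (SE) was -2.90 without KO replicate 2 and -0.80 without KO replicate 1. It was not called with DESeq2, without KO replicate 1 or without WT replicate 2. Ifit1bl2 (ENSMUSG00000067297), chr19:34617049-34640743 on the minus strand, had 13.2 and 24.4 estimated counts in KO libraries, against 9.17 and 21.3 in WT libraries. Those groups overlap and the sign of the difference (-0.05 ± 0.44, SE) turned when single libraries were left out. Ifit1bl2 shares its start region with Ifit1, yet its level was 1.66 ± 0.743 CPM in KO libraries and 1.70 ± 0.879 CPM in WT libraries (SD, n = 2), far under that of Ifit1.

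Among the 4 genes nearer to Acta2, Fas was higher in KO. Fas (ENSMUSG00000024778), chr19:34290666-34327772 on the plus strand, begins 35.1 kb from the start of Acta2 and had 128 and 131 CPM in KO libraries, against 113 and 104 CPM in WT libraries. Both KO values exceeded both WT values, with a log2 fold change of 0.26 ± 0.054 (SE, n = 2 per genotype). It was not called with an assumed BCV of 0.1 or 0.2.

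Stambpl1 (ENSMUSG00000024776), chr19:34192229-34240333 on the plus strand, is the nearest gene, and its end lies 757 bases from the end of Acta2. The 2 genes are transcribed toward each other. Stambpl1 had 72.1 and 72.7 CPM in KO libraries and 73.4 and 73.9 CPM in WT libraries. The values were nearly level, and the log2 fold change of -0.02 ± 0.062 (SE) was smaller than its error although Acta2 next to it was lower by 3.07 on the log2 scale.

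Ch25h (ENSMUSG00000050370), a single-exon gene at chr19:34473778-34475164 on the minus strand, had 123 and 119 CPM in KO libraries and 121 and 103 CPM in WT libraries. The groups overlapped, with a log2 fold change of 0.11 ± 0.060 (SE), and the value was -0.01 without WT replicate 2 and 0.23, then called, without WT replicate 1. The gene overlaps the exons of an antisense transcript, Gm26902, and 4.66% of its windows are shared. Whether reads were counted by strand is not given in the sources used here, so reads of the 2 cannot be told apart.

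Lipa (ENSMUSG00000024781), chr19:34492318-34527474 on the minus strand, had 197 and 191 CPM in KO libraries, against 214 and 210 CPM in WT libraries. Both KO values were lower, but the difference was small, with a log2 fold change of -0.13 ± 0.045 (SE, n = 2 per genotype). Its call was lost when libraries were scaled by size only, without KO replicate 2, or without either WT replicate, and neither DESeq2 nor the fits at a BCV of 0.1 or 0.2 made it.

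Per kilobase of exon, the order of levels was similar in the 2 genotypes. In KO libraries it ran Ifit3 (182 CPM per kb), Ifit1 (91.2), Ch25h (87.2), Fas (62.9), Ifit3b (35.5), Lipa (28.7), Stambpl1 (13.0), Ifit2 (7.72), Ifit1bl2 (0.494) and Ifit1bl1 (0.421). In WT libraries Ifit3 (463 CPM per kb) and Ifit1 (194) were followed by Ifit3b (90.3), ahead of Ch25h (80.9) and Fas (52.5), while Lipa (31.3), Stambpl1 (13.3) and Ifit2 (9.93) kept their places above Ifit1bl1 (1.19) and Ifit1bl2 (0.505). Ifit3b thus stood below Ch25h and Fas in KO and above both in WT. The ranges of neighbours in this order did not overlap, except for Ifit1bl2 and Ifit1bl1 in KO. Ifit3 ranked at the 97.1 percentile of tested genes in KO and at the 99.1 percentile in WT.

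On the side of Acta2 that holds 9 of the 10 genes, the log2 fold change fell with distance from Fas to Ifit3, a run picked after its values were seen. It was 0.26 for Fas, 0.11 for Ch25h, -0.13 for Lipa, -0.37 for Ifit2 and -1.35 for Ifit3. Next came Ifit1bl1 at -1.51 ± 0.46 (SE), a value from low counts that was -0.80, above Ifit3, without KO replicate 1. Beyond these it was -1.34 for Ifit3b, -0.05 for Ifit1bl2 and -1.09 for Ifit1, so the order did not continue. Whether position had a part in these values was not tested. The gap to Acta2 was 0.757 kb for Stambpl1, on the other side, with a log2 fold change of -0.02, and 35.1 kb for Fas, which was higher in KO. Ch25h and Lipa lie 218 and 237 kb away, and the 3 genes with the clearest lower values, Ifit3, Ifit3b and Ifit1, lie 328, 352 and 385 kb away, on the side of Acta2 that holds 9 of the 10 genes. Ifit1bl2, between Ifit3b and Ifit1, showed no such difference at its low level. The other table genes inside the stretch were silent or nearly so: Lipm and Ankrd22 had no count in any library, and Slc16a12 had 1 and 0 counts in KO, against 2 and 1 in WT. The nearest tested genes outside were Lipo3, with a log2 fold change of -0.01 ± 0.13, and Pank1, with -0.14 ± 0.28 (SE), neither called. Of 4 tested genes within 1 Mb that are not in the set, 1 was called, which was Kif20b, a mitotic kinesin, lower by 0.79 on the log2 scale and named after its value was seen. From 1 to 5 Mb, 28.9% of 45 tested genes were called, and over the rest of chromosome 19 the share was 35.1% of 376, beside 35.7% of all tested genes.

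**Figure D2:**
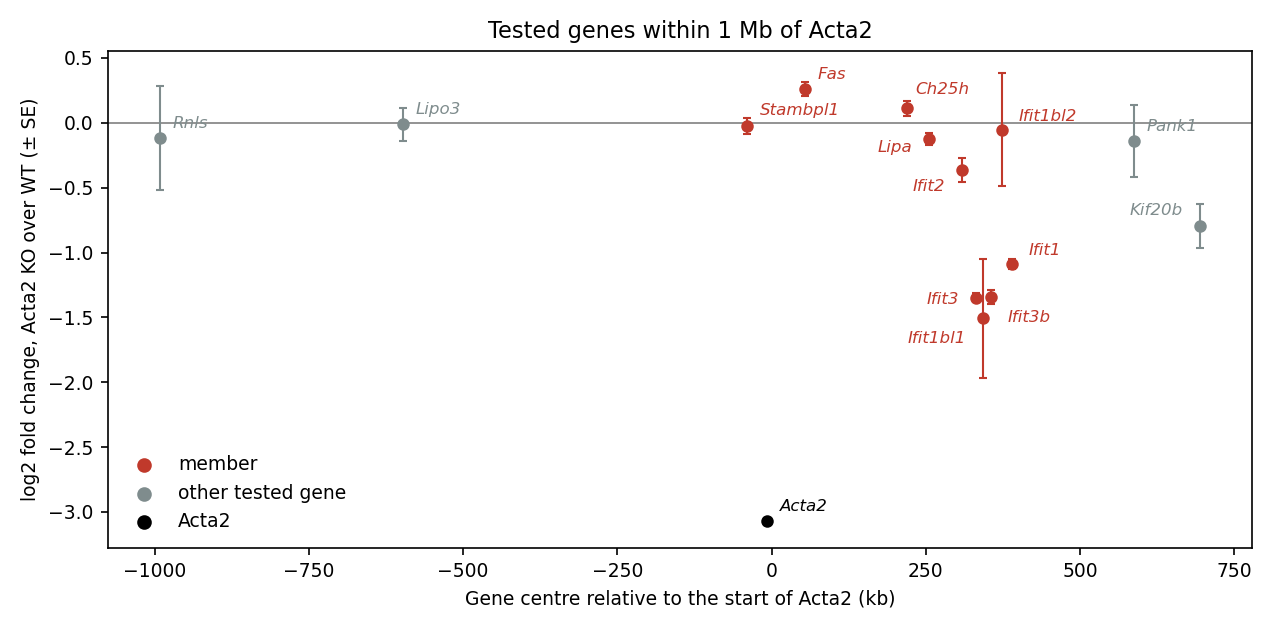
Log2 fold change, Acta2 KO over WT, with its standard error (vertical axis), against the centre of each tested gene within 1 Mb, in kb from the start of Acta2 (horizontal axis). Red points are the 10 genes, grey points other genes and the black point Acta2 at -3.07; Ifit3, Ifit3b, Ifit1bl1 and Ifit1 sit below -1, and Stambpl1 beside Acta2 sits near 0.

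Genes that act with the Ifit family were compared by lists chosen with earlier results of these data known. All p-values here come from edgeR's quasi-likelihood test with Benjamini-Hochberg adjustment over 12192 genes. Of 44 interferon-induced effectors outside the cluster, 42 were tested; 22 fell and 6 rose (median log2 fold change -0.19, beside 0.00 over all tested genes). Zbp1, a sensor of Z-form nucleic acid, fell to 114 and 107 CPM in KO, against 170 and 167 CPM in WT (-0.61 ± 0.050, adjusted p = 1.61e-10). Ifitm3, a membrane protein that blocks virus entry, fell by 0.28 on the log2 scale (adjusted p = 2.74e-09), and Gbp3, an interferon-induced GTPase, by 0.63 (adjusted p = 1.91e-09).

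Iigp1, an immunity-related GTPase, fell by 1.02 on the log2 scale (adjusted p = 3.46e-09), and averaged 20.5 CPM in KO libraries, against 41.6 CPM in WT libraries (SE of the log2 fold change 0.099). This was the lowest value among the 42 listed effectors, and Ifit3, Ifit3b and Ifit1 had lower values than it. The ranking depends on the list: Ifi205 (-1.25) and Ddx60 (-1.13), which are not on it, were lower than Ifit1 as well. In the other direction, Rsad2, which makes an antiviral nucleotide, and its genomic neighbour Cmpk2 rose by 0.54 (adjusted p = 0.00335) and 0.52 (adjusted p = 5.67e-05); these 2 were picked after their values were seen. The classical interferon-induced genes thus did not all move the way Ifit3 and Ifit1 did.

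Upstream of these effectors, 22 of 24 genes of interferon sensing and signalling were tested; 8 fell, 1 rose and 13 did not pass (median -0.13). Jak1, the kinase shared by the interferon receptors, fell by 0.33 on the log2 scale (adjusted p = 1.77e-06), and Irf9, a transcription factor of the interferon response, fell by 0.36 (adjusted p = 4.86e-06). Ifih1, a cytoplasmic sensor of double-stranded RNA, fell by 0.38 (adjusted p = 7.63e-06), and Usp18, a brake on the receptor, by 0.22 (adjusted p = 1.41e-05). Ifnb1, the gene of interferon beta, had 1 and 0 counts in KO libraries and 0 and 1 in WT libraries.

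For the Fas death receptor, 16 of 17 pathway genes were tested; 4 fell and 12 did not pass the test (median -0.07), while Fas itself was higher. Casp8, the initiator caspase of the receptor, fell by 0.21 (adjusted p = 0.0157) and Ripk1, a kinase of death receptor complexes, by 0.24 (adjusted p = 0.0425). Faim, an inhibitor of Fas-induced death, fell by 0.41 (adjusted p = 0.0148), and Tnfrsf10b, the TRAIL receptor, by 0.28 (adjusted p = 0.00605). Fasl, the ligand, was at 0 in every library.

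Beside Lipa, 18 genes of lysosomal lipid handling were tested; 9 fell and 3 rose (median -0.11). Asah1, acid ceramidase, fell by 0.32 (adjusted p = 3.93e-10) and Scarb2, a lysosomal membrane receptor, by 0.49 (adjusted p = 4.76e-09). Lamp2, a lysosomal membrane protein, fell by 0.24 (adjusted p = 1.10e-06), and Ctsb, a lysosomal protease, by 0.15 (adjusted p = 5.68e-06). Among 13 tested genes around the oxysterol product of Ch25h, 3 rose and 2 fell (median -0.18). Cyp27a1, a sterol hydroxylase, rose by 0.98 (adjusted p = 0.000598) with 8.32 and 8.03 CPM in KO, against 3.96 and 4.31 CPM in WT. Abcg1, a sterol exporter, rose by 0.35 (adjusted p = 8.64e-06) and Nr1h2, an oxysterol receptor, by 0.22 (adjusted p = 0.00105), while Insig1, a retention protein of sterol synthesis control, fell by 0.60 (adjusted p = 2.53e-08).

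For Stambpl1, a list of 14 partners in or around the ESCRT machinery, which sorts ubiquitinated receptors, was used. All 14 were tested, and 3 rose and 3 fell (median 0.03). Hgs and Stam, which bind ubiquitinated cargo together, rose by 0.42 (adjusted p = 1.27e-05) and 0.35 (adjusted p = 0.00375). Chmp1b and Chmp3, filament subunits, fell by 0.21 (adjusted p = 0.00298) and 0.18 (adjusted p = 0.00644). Over the 6 lists, 64 genes were called, but 42 with DESeq2, 17 with an assumed BCV of 0.1 and 1 with 0.2. The BCV estimated from these replicates was 0.0311. The shares called, to be read against 35.7% of all tested genes, were 66.7% of the interferon effectors, 40.9% of the sensing and signalling genes, 25% of the Fas pathway, 66.7% of the lysosomal genes, 38.5% of the oxysterol genes and 42.9% of the ESCRT genes. The signalling, oxysterol and ESCRT shares are near that background and the Fas share is below it, so they are no result about those lists. No share was tested, as the lists were chosen with earlier results of these data known.

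The mean profile of the 6 Ifit genes over the 4 libraries was matched against 10017 other tested genes that averaged 2 or more on the log2 CPM scale. By Euclidean distance on centred log2 CPM, the nearest were Hoxa5 (0.0484), Sema3d (0.0624), Gpm6a (0.107), Hoxb2 (0.151) and Akap7 (0.153). Hoxa5, the closest, had 4.82 and 6.48 CPM in KO, against 10.2 and 12.3 CPM in WT. The mean profile differs between the 2 KO libraries (-0.70 and -0.24) mostly through Ifit1bl1 and Ifit1bl2, whose counts are low. Ifit3 (319 and 315 CPM) and Ifit1 (243 and 241 CPM) showed no such gap between the KO libraries. The nearest genes therefore match a profile that low counts shaped in part, and nothing about Ifit3 or Ifit1 is read from them. In addition, 4 libraries are few for such a ranking.

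The peaks over the same stretch did not show the gap between genotypes seen in the RNA of Ifit3 and Ifit1. The peaks at the starts of these genes rest on few fragments, however, and leave room for a difference. With 1 library per genotype there is no replicate check and no test. In the 0.6 Mb stretch around the genes the authors called 64 KO and 62 WT peaks, of 121748 KO and 123935 WT peaks in all. Of the peaks in the stretch, 52 in each list overlapped a peak of the other by at least 1 bp, which is 81.3% of the KO peaks and 83.9% of the WT peaks. Joined into 72 loci, 50 were found in both libraries, 12 in KO alone and 10 in WT alone. Among peaks found in 1 library, the highest fold enrichment was 7.23 in KO and 5.75 in WT, beside medians of 6.59 in KO and 5.96 in WT over all peaks of the stretch. Of the 50 shared loci, 2 were at least 1.5-fold higher and 1 at least 1.5-fold lower in KO, beside 12.6% and 4.79% of 89316 shared loci over the genome. The median log2 ratio, KO over WT, was 0.05 over the 50 loci and 0.16 over the genome.

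**Figure D3:**
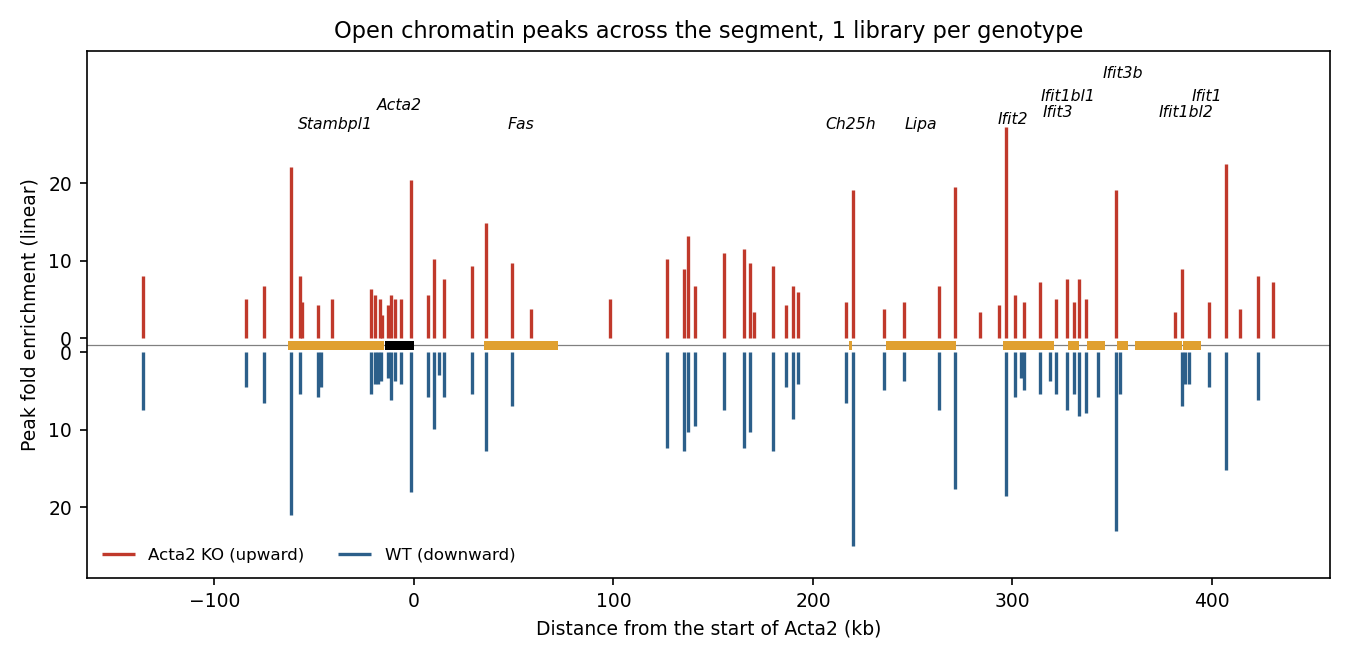
Fold enrichment of the authors' peaks across the stretch (linear vertical axis, upward for the Acta2 KO library and downward for the WT library) against the distance of each locus from the start of Acta2 in kb. Orange bars are the 10 genes and the black bar is Acta2; most tall peaks stand in both libraries, the tallest in KO at the start of Ifit2 (27.2) and in WT at the start of Ch25h (25.1).

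A peak within 1000 bases before to 500 bases after the annotated start was present in both libraries at 9 of the 10 genes, and Ifit1bl1 had none in either. No promoter of the set passed a 1.5-fold difference in either direction, beside 8.26% higher and 1.17% lower among 14811 promoters with a peak in both libraries. Over those promoters the median log2 ratio was 0.17, so a promoter with that ratio is typical. The highest ratio in the set was that of Ifit2, with a fold enrichment of 27.2 in KO and 18.5 in WT (log2 ratio 0.56, at the 90.5 percentile of all promoters). The Ifit2 peak thus ran opposite to its RNA, which was lower in KO. In fragments implied by the steps of the peak values, this was 63 in KO (95% Poisson interval 48.4 to 80.6) and 44 in WT (32.0 to 59.1), intervals that overlap and cover counting error only.

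The lowest ratio was that of Ch25h, with 19.1 in KO and 25.1 in WT (log2 ratio -0.39, at the 3.39 percentile), while its RNA groups overlapped. Ifit3b had 19.1 in KO and 23.0 in WT (-0.27). Both sets of counting intervals overlapped, at 32.0 to 59.1 fragments in KO and 45.8 to 77.2 in WT for Ch25h, and 32.0 to 59.1 in KO and 41.4 to 71.6 in WT for Ifit3b. Ifit3, whose RNA was lower to the same degree as that of Ifit3b, had 7.65 in KO and 7.39 in WT (log2 ratio 0.05). That is 17 implied fragments in each library, with a counting interval of 9.90 to 27.2 in both. Such wide intervals cannot show that the Ifit3 peak was unchanged.

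Ifit1 and Ifit1bl2 share 1 peak that covers both starts, with 8.93 in KO and 6.98 in WT (log2 ratio 0.35). Its implied fragments were 20 in KO (interval 12.2 to 30.9) and 16 in WT (9.15 to 26.0), again few. The remaining promoters were those of Stambpl1 (22.1 in KO, 20.9 in WT), Fas (14.9 in KO, 12.7 in WT) and Lipa (19.6 in KO, 17.7 in WT), with log2 ratios of 0.08, 0.22 and 0.15. In this set the promoter ratio did not order the genes as their RNA did, but the KO and WT counting intervals overlapped at each of these promoters. With 1 library per genotype the order of these ratios is uncertain, so nothing is read from it. Around the starts of Ifit3 and Ifit3b, 57.1% and 57.4% of 50-base windows recur on chromosome 19, and since only unique alignments were kept, per the labels, those 2 peaks can be understated in both libraries. Reads were 150 bases long, so a repeated 50-base window need not make a read ambiguous. The extent was not tested.

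**Figure D4:**
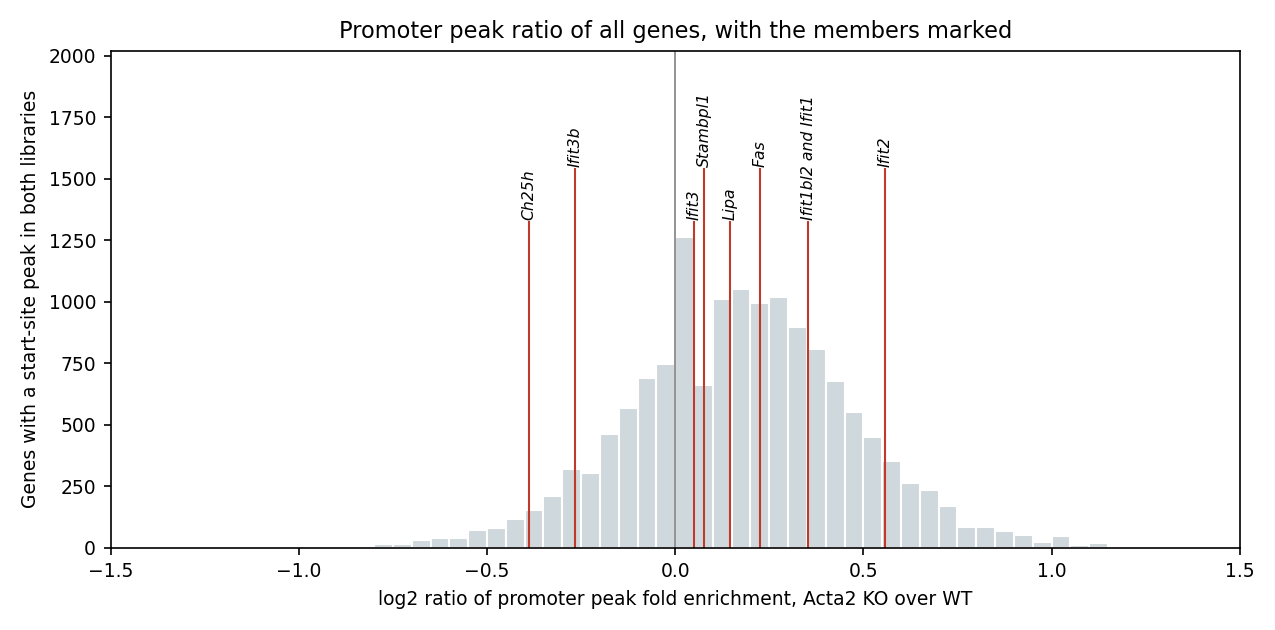
Distribution of the log2 ratio of promoter peak fold enrichment, Acta2 KO over WT (horizontal axis), over 14811 genes with a start-site peak in both libraries (bars, number of genes), with 9 genes of the set as red lines. Ch25h and Ifit3b lie on the low side at -0.39 and -0.27 and Ifit2 on the high side at 0.56, while the bulk of genes centres at 0.17.

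The core motif of the response element was also counted in 300 bases around peak summits. It was present in 4 of 64 KO peaks (6.25%) and 3 of 62 WT peaks (4.84%) of the stretch, and in 3.03% and 3.10% of all KO and WT peaks. The peak over the shared start of Ifit1 and Ifit1bl2 and a peak between Fas and Ch25h held it in both libraries. The intronic Ifit2 peak printed above held it in KO, where its fold enrichment was 7.23, against 5.34 in WT. At Ifit3 and Ifit3b the copies lay inside the peaks of both libraries but outside the 300 bases around their summits. One more strong locus belongs to no start in the annotation used for the counts. It lies at chr19:34661869-34662921 between Ifit1 and Slc16a12, with a fold enrichment of 22.5 in KO and 15.2 in WT, and it was picked after its values were seen. RefSeq extends Ifit1bl1 on the minus strand to 34662981, so a RefSeq transcript start of that gene lies beside this peak; its window was not among those searched.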

How the data were processed

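RNA was measured in 2 Acta2 KO and 2 WT libraries and open chromatin in 1 library of each genotype. The RNA table deposited by the authors holds estimated counts per gene, since 10.8% to 12.2% of its values are not whole. STAR 2.5.3a placed the Trim Galore 0.6 output on mm10, per the labels' protocols, and the counting tool is not given in the sources used here. ATAC-seq reads were aligned with Bowtie2 2.3, only unique alignments were kept and duplicates removed, and peaks were called per sample by MACS2 without a local background, per the labels' protocols. The deposited peak lists give a score, a fold enrichment at the summit, and −log10 p and −log10 q values, all as the authors made them.

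The design had assumed whole counts; estimated counts were rounded to whole numbers and tested with edgeR 4.0.16 (quasi-likelihood test, filterByExpr with a minimum count of 10, TMM, Benjamini-Hochberg adjustment over 12192 genes, in R 4.3.3). Each SE was obtained as |log2 fold change| over the root of F. The script was tested on simulated data. Exon positions come from GENCODE (GRCm38, the assembly also called mm10), in which 25635 of 25746 table genes were found, and sequences from RefSeq (GRCm38.p6). Intervals are exact Poisson intervals of 95%. Members and lists were chosen with earlier results of these data known. Named genes are all 10 members, Acta2, the nearest tested genes on each side, up to 4 called genes of each list with the smallest p, the 5 nearest profiles and defining markers; Kif20b, Lipm, Ankrd22, Slc16a12, Ifnb1, Fasl, Rsad2, Cmpk2, Ifi205, Ddx60 and Cybb fall outside this rule and were picked after their values were seen. Replicates of 1 genotype differed by more than sampling noise (chi-square per degree of freedom 1.95 in KO and 1.75 in WT). Alternatives were DESeq2 1.42.0, other scalings, no filter, fixed BCV values, a replicate block, single libraries left out, and other peak and promoter definitions. The matches of 1 further planned motif are not reported here.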

Additional observations from a re-analysis of the deposited data

How the results depend on the processing

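The direction of Ifit3, Ifit3b, Ifit1, Ifit2, Ifit1bl1 and Lipa (lower) and of Fas (higher) held under all 11 alternatives of the RNA fit. These alternatives could hardly have turned it, since the KO and WT libraries did not overlap in any of these genes. Stambpl1, whose libraries did not overlap either, also kept its sign, with values from -0.031 to -0.003. Ch25h turned sign without WT replicate 2, and Ifit1bl2 without single libraries. The log2 fold change ranged over these alternatives from -1.36 to -1.33 for Ifit3, from -1.40 to -1.30 for Ifit3b and from -1.10 to -1.07 for Ifit1. Of the 10 genes, 4 were called with DESeq2 (Fas, Ifit3, Ifit3b and Ifit1) and 4 with an assumed BCV of 0.1 or 0.2 (Ifit3, Ifit1bl1, Ifit3b and Ifit1), against 7. Genes called over the whole table were 2058 with DESeq2, 1780 with a BCV of 0.1 and 398 with a BCV of 0.2, against 4352; genes called in the 6 lists were 42, 17 and 1, against 64. With a BCV of 0.2, 0 genes outside the set were called within 1 Mb, against 1. The median log2 fold change of the 10 genes was -0.25; it ranged from -0.52 (without KO replicate 2) to -0.22 (without KO replicate 1), was -0.44 without WT replicate 1, and was -0.13 with Ifit3 and Ifit3b summed, which leaves 9 features. Replicate differences in KO and in WT did not correlate (0.000403 over 12192 genes), which cannot exclude that equally numbered libraries share a source. With the replicate number as a block, 4408 genes, 67 list genes and 7 of the 10 genes were called. Shared peaks were 67.2% of KO and 69.4% of WT peaks with a reciprocal overlap of 50%, and 77.4% of KO and 91.1% of WT peaks with a −log10 q of at least 5, against 81.3% and 83.9%. With 2 libraries per genotype and 1 ATAC-seq library each, small differences such as those of Lipa and Ch25h cannot be resolved, and low counts limit Ifit1bl1 and Ifit1bl2. The causes of these shifts were not tested.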

Other observations

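Outside the 10 genes and Acta2, 28 tested genes had a RefSeq promoter window with 2 or more copies of the response element core. Of these, 11 fell (39.3%) and 5 rose (17.9%). Several of those that fell, Gbp3 and Ifitm3 among them, are also on the list of interferon effectors above, while those that rose are not. This count is therefore not independent of that list, which was chosen with earlier results of these data known. Among 351 genes with at least 1 copy, which include these 28, 26.2% fell and 16.2% rose. Among 9169 genes with none, 16.4% fell and 18.5% rose. The medians of the log2 fold change were -0.05, -0.05 and 0.01. These shares are a description without a test. Ifi205, an interferon-induced gene of the Ifi200 family, and Ddx60, a helicase of antiviral defence, had the lowest values of the 28, picked after they were seen: Ifi205 averaged 6.47 CPM in KO and 15.5 CPM in WT (log2 fold change -1.25 ± 0.16, SE), and Ddx60 averaged 2.47 CPM in KO and 5.36 CPM in WT (-1.13 ± 0.29). Cybb, a subunit of the phagocyte oxidase, had the highest value, with 8.98 CPM in KO and 4.84 CPM in WT (0.89 ± 0.20), and was also picked after it was seen. Macrophage markers were higher in sum in the KO libraries, and a link between the 2 was not tested.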
